A study of Drosophila melanogaster with 2 samples.

Results

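All ranked calls on Drosophila melanogaster chromosome 4 were described here for CG4360-eGFP, a zinc finger protein joined to green fluorescent protein. They are the rows for chromosome 4 in the list that ranks calls by their reproducibility between the true replicates, and there were 407 of them among 128147 rows in all. Chromatin from whole embryos of transgenic flies of the strain CG4360-GFP, collected 0 to 24 h after laying, was precipitated with an antibody to the tag. There was 1 group with 2 biological replicates, both of which carried the transgene, and the mixed stages and tissues of the whole embryo were pooled. Samples without the tag, and the control alignments that the authors used in making the lists, were not analysed here.

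Chromosome 4 is the small dot chromosome of the fly. Its gene-bearing arm is rich in transposable elements and in the heterochromatin protein HP1a, and the protein POF coats it, yet many of its genes are active. It carries several well-known developmental regulators, among them the Pax6 genes eyeless (ey) and twin of eyeless (toy), cubitus interruptus (ci) of the Hedgehog pathway and pangolin (pan) of the Wnt pathway.

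A call is an interval with a summit, the position of highest signal, and its signal value is the number the authors' caller gave it, on a scale that neither the labels nor the files state. The irreproducible discovery rate (IDR) estimates from the ranks in both replicates how likely a call is to be irreproducible, and a call was counted as past the threshold at a −log10 global IDR of at least 2, which is an IDR of at most 0.01. On chromosome 4, 12 of the 407 calls passed. That is 2.95%, with an exact binomial 95% interval of 1.53 to 5.09%, against a background of 4.58% over all chromosomes. On the 5 large arms, which are both arms of chromosomes 2 and 3 and the X, 4.65% of 126002 calls passed, with an interval of 4.53 to 4.77%, so the share on chromosome 4 was lower in value but the intervals overlapped.

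The sequences at the summits are shown first, with the calls past the threshold that held a repeated CAA or CAG word set before some that did not. Each is the plus strand of dm6 (release 6, from RefSeq), read 5′ to 3′. The word CAACAAC was searched on both strands with its 3 variants that have CAG for the first CAA (written CAGCAAC), for the second (written CAACAGC) or for both (written CAGCAGC). Matches may overlap, and capitals mark every match that lies wholly within the printed bases, including reverse complements such as GTTGTTG. Of the following, toy at chr4:989530-989630, mGluR at chr4:936666-936766 and the intronic call of zfh2 at chr4:506913-507013 held a word within 50 bp of the summit.
toy: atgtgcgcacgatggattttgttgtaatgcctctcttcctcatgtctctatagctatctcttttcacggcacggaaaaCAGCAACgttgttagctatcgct
mGluR: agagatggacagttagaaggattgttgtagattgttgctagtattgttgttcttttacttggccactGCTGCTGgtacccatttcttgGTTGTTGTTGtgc
zfh2 intron: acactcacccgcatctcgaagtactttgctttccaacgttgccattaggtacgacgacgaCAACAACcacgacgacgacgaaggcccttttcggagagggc

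The words of the calls at unc-13 and CG31999 lay in 5′ untranslated exons, so only 27 bases around the word nearest the summit are given, from chr4:905877-905903 and chr4:226069-226095. In unc-13 the nearest of 5 matches within 50 bp of the summit started 2 bp before the summit, and in CG31999 the only match started 1 bp after it.
unc-13: aGTTGTTGTTGCTGTTGccatggctgc
CG31999: gccaaagcaaGCTGTTGacatatgtat

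The next sequences held none of the 4 words and are shown for contrast, because they belong to calls of comparable rank. They are the call upstream of zfh2 at chr4:497855-497955, which had the second highest signal on the chromosome, PlexA at chr4:1027234-1027334, and the call within a copy of the transposable element 1360 at chr4:47276-47376.
zfh2 upstream: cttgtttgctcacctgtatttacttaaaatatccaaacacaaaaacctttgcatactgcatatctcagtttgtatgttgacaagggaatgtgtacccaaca
PlexA: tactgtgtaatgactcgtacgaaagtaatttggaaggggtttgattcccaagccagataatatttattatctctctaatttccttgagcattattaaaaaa
1360 element: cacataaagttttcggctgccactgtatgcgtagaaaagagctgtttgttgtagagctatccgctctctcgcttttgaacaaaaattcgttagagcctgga

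The strongest call lay at the start of toy, a Pax6 transcription factor gene that acts at the head of the eye determination network. Its summit at position 989580 was 145 bp upstream of the annotated start of toy. The signal value was 1749.6 for both replicates together, 1069.4 in replicate 1 and 673.0 in replicate 2, and its −log10 IDR was 5. It stood at row 11 of the 128147 in the list, but the rows do not run in order of IDR, so this is not its rank. The second highest signal on chromosome 4 was 189.4. The toy call was also the only call on the chromosome whose width differed from 390 bp, at 358 bp. The gene itself, on the plus strand at chr4:989725-1007922, held 16 more calls, none of which passed the threshold.

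The gene zfh2, which codes for a zinc finger homeodomain transcription factor of limb and nervous system development, accounted for 3 of the 12 calls. Upstream of it, 3905 bp from the start, the summit at 497905 had a signal of 189.4, with 47.5 in replicate 1 and 140.9 in replicate 2. At the start, 211 bp upstream, the summit at 501599 had a signal of 72.1, with 43.9 and 39.4 in replicates 1 and 2. In replicate 2's own list, however, the nearest summit was 156 bp away, with a signal of 39.4 and a −log10 IDR of 0.115. In the first part of the gene, 5153 bp downstream of the start and in an intron, the summit at 506963 had a signal of 112.2, with 89.9 in replicate 1 and 36.2 in replicate 2. The replicates thus put the distal and the intronic call of the same gene in opposite order. Within zfh2 and 20 kb upstream of it there were 33 calls in all, and 25% of the chromosome's calls past the threshold lay there. That window reaches past the start of Asator, the next gene, and includes calls that lie nearer to Asator than to zfh2.

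Besides that of toy, the promoter calls with a signal over 100 were at 2 receptor genes of the nervous system. At mGluR, the metabotropic glutamate receptor gene, the summit at 936716 lay 103 bp upstream of the start, with a signal of 147.8, 82.7 in replicate 1 and 62.5 in replicate 2. At PlexA, a plexin receptor for semaphorins in axon guidance, the summit at 1027284 lay 183 bp upstream of the start, with a signal of 145.1, 51.2 in replicate 1 and 82.7 in replicate 2. The fifth promoter call was at CG31999, where the summit at 226078 lay 122 bp upstream of a transcript start and inside a 5′ untranslated exon of a longer transcript. Its signal was 73.5, with 30.4 in replicate 1 and 47.1 in replicate 2.

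The other calls past the threshold lay away from transcript starts. At Cals, which codes for the calsyntenin of the fly, a cadherin-type membrane protein of synapses, the summit at 1113362 was in the 3′ untranslated region, 9603 bp from the start, with a signal of 138.7, 68.7 in replicate 1 and 78.3 in replicate 2. That position is close to the 3′ end of sv, the Pax2/5/8 gene, at 1113317. In unc-13, which codes for a priming factor of synaptic vesicles, the summit at 905889 had a signal of 81.6, with 40.8 and 29.3, and lay 710 bp from the nearest start, that of the non-coding gene CR43361. The call in the 1360 element, at 47326, had a signal of 84.6, with 41.3 in replicate 1 and 41.9 in replicate 2. The replicate 2 value was shared with an overlapping call at 47530, and the nearest summit in replicate 2's own list was 499 bp away with a signal of 23.5. Its nearest protein-coding start was that of PlexB, the second plexin, at 3548 bp, and it lay just outside the 3′ end of ci at 47710.

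The remaining pair was intergenic. The summit at 424824 had a signal of 83.9, with 34.9 in replicate 1 and 46.3 in replicate 2, and lay 1243 bp from the start of the non-coding gene lncRNA:CR43437 and 19087 bp from that of lgs (legless), the BCL9-type coactivator of Wnt signalling. The summit at 982998, with a signal of 63.5, 32.7 in replicate 1 and 34.2 in replicate 2, lay 4509 bp upstream of fuss, a gene of the Ski/Sno family. Over the 12 calls, the ratio of replicate 1 to replicate 2 ran from 0.337 at the distal zfh2 call to 2.48 at the intronic zfh2 call, with a median of 0.971.

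**Figure D1:**
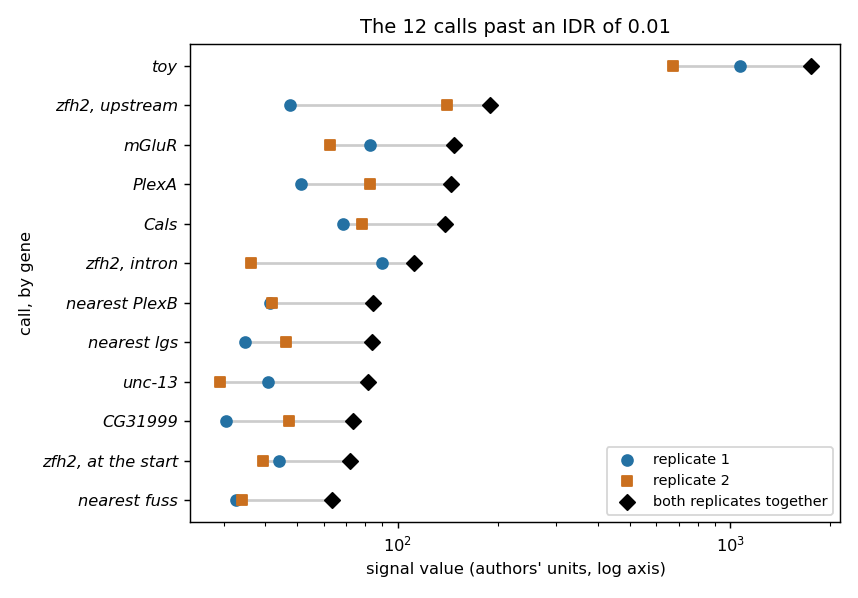
Signal value (authors' units, log axis) of the 12 chromosome 4 calls past an IDR of 0.01, 1 row per call named by its gene or nearest gene, in replicate 1 (circles), replicate 2 (squares) and both together (diamonds). The toy call stands apart at 1749.6, and the other 11 lie between 63.5 and 189.4.

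The calls just inside the threshold were those of unc-13 at a −log10 IDR of 2.26, near fuss at 2.34 and at CG31999 at 2.41. Just outside were a call at the start of CaMKII, a calcium-dependent kinase gene, at 1.82, a call in an INE-1 element within an intron of Gyf at 1.59 and a further intronic call of zfh2 at 1.57. The CaMKII call, with its summit at 1054008, had a signal of 33.1, with 26.3 in replicate 1 and 28.001 in replicate 2. The last of these had its summit at 507571 and a signal of 71.5, the highest of any chromosome 4 call that did not pass, with 40.5 in replicate 1 and 23.3 in replicate 2. It was past the threshold in the pooled list, at 2.99, and within 6 bp in replicate 1's list, at 3.00192, and replicate 2's list had a call past the threshold 119 bp away, at 2.58. It held CAACAAC within 50 bp of its summit, as did the call with the next highest signal, in an intron of CG33978 at 165801, with 65.5, 39.5 and 21.0 for both, replicate 1 and replicate 2. The CG33978 call was past the threshold in the pooled list, at 2.26. At CaMKII, replicate 1's own list had a call past the threshold at 1051394, 16 bp upstream of a transcript start. That call had a signal of 71.8 and a −log10 IDR of 3.37 and held CAACAAC, and the nearest of the 407 calls was 2614 bp away.

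The other 8 of the 10 strongest calls that did not pass had signals from 46.4 to 59.6, and none held CAACAAC within 50 bp of the summit. They lay at or in zfh2 (502490 and 501800), at the start of Asator (489484), a tau-tubulin kinase gene, in Gyf (860151), at the start of lncRNA:CR45123 (851372), in the CR43361 and unc-13 region (907607), and in copies of mariner2 near Ekar (647936) and INE-1 near fuss (980375). For 2 of them the replicates differed by more than 3-fold: the mariner2 call had 8.12 in replicate 1 and 27.1 in replicate 2, and the call at 907607 had 9.59 and 32.6. The call at 501800 shared its replicate 2 value, 39.4, with the zfh2 promoter call, since the ranked list may use the same replicate call more than once. At Asator, replicate 1's own list had a call past the threshold with its summit 13 bp away, at a −log10 IDR of 2.15.

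The separate lists of the same study were made from the same libraries, so a match in them is not independent support for a call. A peak in another list was taken to match when its summit lay within 100 bp. The list made from replicate 1 alone had 8 of the 12 past the threshold, and that from replicate 2 alone had 6; over all chromosomes, 5.18% and 4.31% of the calls in those ranked lists passed. The calls at toy, mGluR and PlexA and the distal zfh2 call were in both. The intronic and promoter calls of zfh2, the call at Cals and that in the 1360 element were in replicate 1's list only, the calls near lgs and at CG31999 in replicate 2's only, and those at unc-13 and near fuss in neither. The pooled list, in which 4.94% of calls passed over all chromosomes, held 11 of the 12 past the threshold and lacked the Cals call. Those 11 had the same summits and signal values in both lists, so they are the same peaks given again. For Cals, the nearest summit of replicate 2's own ranked list was 490 bp away with a signal of 12.1, and the nearest pooled summit was 1884 bp away with a signal of 16.7, whereas the ranked list of true replicates gave 78.3 for replicate 2.

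Calls were sparse on chromosome 4, and their median signal was close to that of the large arms over all ranked calls and lower in value among calls past the threshold. There were 301.9 calls per Mb, against 950.7 per Mb on the 5 large arms, and 8.90 calls past the threshold per Mb against 44.2. After overlapping calls were merged, 265 loci remained, of which 12 held a call past the threshold. The median signal of all calls was 20.1 on chromosome 4 and 19.2 on the large arms. Among calls past the threshold the medians were 98.4 and 104.3, and the chromosome 4 value was 84.6 without toy. The medians past the threshold were lower in value in the other lists too, with 84.2 against 97.5 in the pooled list, 51.2 against 68.9 in replicate 1's and 54.8 against 69.4 in replicate 2's.

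Gene density, base composition and transposable elements also differ between these chromosomes. Chromosome 4 had 59.3 protein-coding genes per Mb against 104.6, and 5.09 calls per protein-coding gene against 9.09. Its GC content was 35.2% against 42.2%, and annotated transposable elements covered 24.8% of its bases against 5.74%. Outside transposable elements there were 320.5 calls per Mb against 1000.2 per Mb. Inside them the order was the opposite, with 245.5 calls per Mb on chromosome 4 and 138.4 on the large arms. Among 1 kb windows free of transposable elements, 22.1% of 680 on chromosome 4 held a call, against 62.4% of 121245 on the large arms.

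For windows with any ranked call, the difference was present in value within each class of GC content. At 30 to 35% GC, 15.6% of the chromosome 4 windows held a call (95% interval 11.4 to 20.6%) against 35.3% of the others, and at 35 to 40% GC the values were 25.9% (19.8 to 32.9%) and 53.2%. At 45% GC or more, where chromosome 4 had only 30 such windows, the values were 63.3% (43.9 to 80.1%) and 76.8%, and that interval covered the value of the large arms. For calls past the threshold, 1.32% of the chromosome 4 windows held one (0.607 to 2.50%), against 4.35% of the others. Within each class of GC content, however, the chromosome 4 interval covered the large-arm value in these windows free of transposable elements. At 30 to 35% GC the values were 1.95% (0.635 to 4.48%) and 2.46%, and at 35 to 40% GC they were 1.62% (0.336 to 4.67%) and 4.515%. Over all windows, with or without such elements, the interval lay below the large-arm value at 35 to 40% GC, with 0.976% (0.266 to 2.48%) against 4.15%. It also lay below at 40 to 45% GC, with 0.637% (0.0161 to 3.50%) against 4.82%, and covered the large-arm value in the other classes. Neighbouring windows can share a call's source, so these intervals cover counting error only. Chromatin state and how well reads map to repeats were not measured in these files, and their part in the lower density was not tested. The part of gene density, GC content and transposable elements in it was not tested either.

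**Figure D2:**
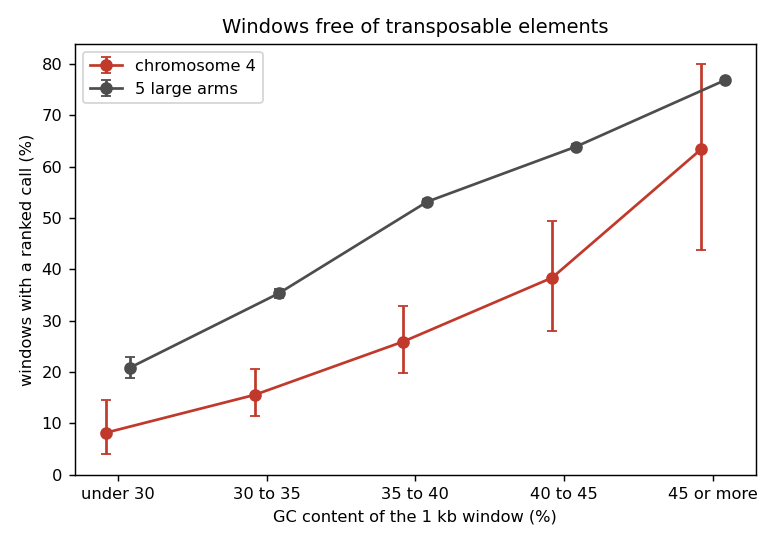
Percent of 1 kb windows without transposable element bases that held at least 1 ranked call, by GC content of the window, for chromosome 4 and the 5 large arms, with exact binomial 95% intervals. Chromosome 4 lies below the large arms in each class, from 8.20% against 20.8% under 30% GC to 63.3% against 76.8% at 45% or more, where its interval is wide.

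Few chromosome 4 genes had a call at a start. Of 80 protein-coding genes, 24 (30%, 20.3 to 41.3%) had any ranked call within 500 bp of a transcript start, against 77.8% of 13865 genes on the large arms. For calls past the threshold the values were 5 of 80 (6.25%, 2.06 to 13.99%) against 16.3%. Calls in the gene body were also rarer: 34 of 80 genes (42.5%) held any, against 83.2%, although the median gene was 10090 bp long on chromosome 4 and 2156 bp on the large arms. In all, 43 of the 80 genes had no ranked call in the body or at a start. They included the transcription factor genes ci, pan, sv, onecut and Mitf, the ephrin receptor gene Eph, and the ribosomal protein gene RpS3A.

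A few genes held many of the calls. The 7 genes with most calls in their bodies held 137 of the 407 (33.7%). They were bt, which codes for the muscle protein projectin, and dati, a zinc finger gene, with 27 calls each, zfh2 with 22, toy and gw, a microRNA silencing factor gene, with 16 each, Sox102F with 15 and ey with 14. In 6 of these genes, all but zfh2, no call in the gene body passed the threshold, where the share over the chromosome was 2.95%. In Sox102F, the pooled list and replicate 2's list each had a call past the threshold, at 813926. Not every long gene held calls: pan, at 44945 bp, and Cadps, at 40923 bp, held none.

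Genes grouped by role gave the following counts of genes with any call at a start and with a call past the threshold there. Of 16 genes for transcription factors and cofactors, 5 had a call and 2 of these, toy and zfh2, had a call past the threshold. The highest signals at starts of the others were 34.7 at dati, 33.5 at NfI and 19.3 at Sox102F. Of 10 genes for signals, receptors and signal adaptors, 4 had a call, with PlexA past the threshold and 58.4 at Asator, 39.3 at the activin gene Actbeta and 26.2 at PlexB. Of 6 neuronal and synaptic genes, 2 had a call at a start: mGluR past the threshold, and unc-13, whose strongest call at a start had a signal of 18.7.

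No gene in the lists for metabolism, translation and housekeeping or for cytoskeleton and muscle had a call past the threshold at a start. Of 10 genes for metabolism, translation and housekeeping, 3 had a call at a start, with 35.004 at gw, 33.3 at apolpp, the lipid carrier gene, and 14.7 at ATPsynbeta, which codes for a subunit of the ATP synthase. Of 3 cytoskeleton and muscle genes, only bt had a call at a start, with a signal of 41.7. Of the 35 protein-coding genes in none of these lists, 9 had a call and CG31999 had the only call past the threshold. Over all 80 genes, 30% had any call at a start and 6.25% a call past the threshold, and whether any of these small counts differs from those shares was not tested.

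A transcript start was more frequent in value at the 12 summits than at the other 395, and the interval for coding sequence and for intergenic summits covered the value of the others. A transcript start lay within 500 bp for 5 of 12 (41.7%, 15.2 to 72.3%), against 12.9% of the 395, and the large arms gave 41.4% past the threshold and 16.3% not past. No call past the threshold had its summit in coding sequence, where 24.6% of the other chromosome 4 calls lay; 0 of 12 allows a share of up to 26.5% at the upper end of the interval. Summits between genes made up 4 of 12 (33.3%, 9.92 to 65.1%), against 26.6% of the other 395 and 13.7% of calls past the threshold on the large arms, and the interval covered both.

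Transposable elements held many of the chromosome 4 calls. Of the 395 calls not past the threshold, 81 (20.5%, 16.6 to 24.8%) had the summit in an annotated element, against 0.867% on the large arms. Of the 12, only the call in the 1360 element did (8.33%, 0.211 to 38.5%), against 0.188% on the large arms. With that call included, 38 summits lay in INE-1 elements, 15 in 1360, 11 in Cr1a, 7 in R1A1 and 5 in jockey2. A summit in overlapping annotated elements was counted for each: all those in R1A1 also lay in INE-1, and all those in jockey2 also lay in Cr1a. On both sets of chromosomes the elements held fewer calls than their length: 20.1% of chromosome 4 calls on 24.8% of its bases, and 0.836% on 5.74% on the large arms.

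The repeated CAA word was found less often in value at chromosome 4 calls past the threshold than on the large arms. CAACAAC lay within 50 bp of the summit for 3 of 12 (25%, 5.49 to 57.2%), those at mGluR and unc-13 and in the zfh2 intron, against 45.2% of calls past the threshold on the large arms. Among calls not past the threshold the values were 3.29% on chromosome 4 and 4.28% on the large arms. Any of the 4 words lay there for 5 of 12 (41.7%), namely toy, mGluR, unc-13, CG31999 and the zfh2 intron, against 50.3%, 8.86% and 12.7% in the same order. Over the whole call, CAACAAC was in the same 3 of 12 against 57.4% of the large-arm calls past the threshold. With 12 calls the interval spans the large-arm shares past the threshold that were measured within 50 bp. For the whole call, its upper end of 57.2% lies just below the 57.4%.

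**Figure D3:**
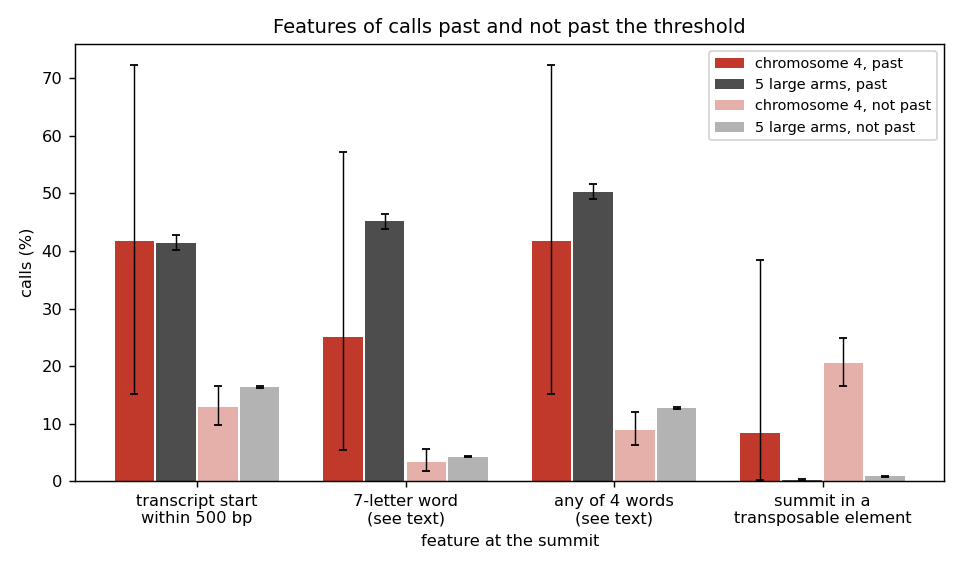
Percent of calls with a transcript start within 500 bp of the summit, with the 7-letter word CAACAAC or any of the 4 CAA and CAG words within 50 bp, and with the summit in a transposable element, for chromosome 4 and the 5 large arms, past and not past the threshold; error bars are exact binomial 95% intervals. The wide bars of the 12 chromosome 4 calls cover the values of large-arm calls past the threshold for starts and words. Transposable elements hold 20.5% of the other chromosome 4 calls against 0.867% on the large arms.

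The word itself was rarer on chromosome 4 and rarely under a call. CAACAAC occurred 322 times, 238.8 per Mb, against 424.1 per Mb on the large arms, and these joined into 286 separate runs. A ranked call had its summit within 50 bp of 18 runs (6.29%), against 22.5% of 45867 runs on the large arms, and a call past the threshold of 3 runs (1.05%, 0.217 to 3.03%) against 8.52%. Among runs of 10 to 15 bases, 2 of 29 on chromosome 4 (6.90%, 0.846 to 22.8%) had a call past the threshold, against 24.7%. The longest runs of chromosome 4 were 13 bases, whereas the large arms had 808 runs of 16 bases or more. The 7 runs of 13 bases lay between positions 1320628 and 1346444, in the end of the chromosome that is almost wholly transposable elements, and none had a call.

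Among the other words searched, TATCGATA, the core of the DNA replication-related element, was denser on chromosome 4, with 98.7 occurrences per Mb against 29.3. It was at 0 of the 12 summits past the threshold and at 2 of the 395 others (0.506%), against 0.734% and 0.245% on the large arms. GAGAGAG, a word of GAGA factor sites, was within 50 bp of 1 of the 12 summits (8.33%), against 4.99% on the large arms. ACACACA was at none of the 12, against 7.87%.

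The calls were spread unevenly along the chromosome. In bins of 100 kb from the first base, the number of calls was 26, 11, 12, 36, 60, 45, 19, 49, 43, 51, 41 and 12 over the first 12 bins, 0 in the next and 2 in the short last bin. Bins 2 and 3, with 11 and 12 calls, were not poor in genes: 7 and 8 protein-coding genes start there, against 2 in the eighth bin with its 49 calls. The last bin is 95.4% transposable element sequence, and the bin before it includes 17000 unknown bases. Calls past the threshold numbered 4 in the tenth bin, at unc-13, mGluR, near fuss and at toy, and 2 each in the fifth and sixth.

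Several long stretches had no call past the threshold in the list made from the true replicates. The longest ran 398925 bp from the intronic zfh2 call to unc-13 and held 149 ranked calls and the starts of 21 protein-coding genes, including ey, bt and Sox102F; its highest signal was 71.5, at the intronic zfh2 call with its summit at 507571. Other lists did have calls past the threshold in it: besides that zfh2 call, at 813926 in Sox102F in the pooled list (signal 89.8, −log10 IDR 3.05) and replicate 2's (46.1, 2.54), and at 777434, at the start of lncRNA:CR45200, in replicate 1's (52.9, 3.03). The stretch from the 1360 call to CG31999 was 178751 bp long with 13 calls, among them that of CG33978, and the stretch from CG31999 to the call near lgs was 198745 bp long with 69 calls. From the Cals call to the end of the sequence, 234769 bp held 13 calls, none with a signal over 29.4, and the starts of 11 genes; replicate 1's list had a call past the threshold there, at 1124017, 150 bp from the start of Arf4. The median distance between neighbouring calls past the threshold was 46282 bp and the shortest, at zfh2, was 3694 bp.

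The replicates ranked the chromosome 4 calls only loosely alike. Over the 407 calls, Spearman's rho between replicate 1 and replicate 2 was 0.231, and Pearson's r of the log2 values was 0.333, or 0.262 without toy. Over the large arms rho was 0.364 and r was 0.475. Among calls past the threshold, which were selected by their ranks in both replicates, rho was 0.490 and r 0.845 for the 12, with toy included. The large arms gave 0.770 and 0.877 for such calls. These describe calls within the same pair of libraries, and 34 of the chromosome 4 calls repeat a replicate pair already used by another. Replicate 2 had the higher value in 243 of 407 calls (59.7%, 54.8 to 64.5%), against 53.7% on the large arms. Among calls past the threshold it was higher in 7 of 12 (58.3%, 27.7 to 84.8%) against 35.1% on the large arms.

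Each replicate's own lists differed in the weight of chromosome 4. Replicate 1's ranked list had 265 calls there, 0.294% of its list, and replicate 2's had 535, or 0.606%. Calls past the threshold went the other way, with 13 in replicate 1 (4.91%, 2.64 to 8.24%) and 8 in replicate 2 (1.495%, 0.648 to 2.93%), where the large arms gave 5.202% and 4.35%. Calls of a list share their library and some overlap, with replicate 2's 535 merging into 412 loci, so these intervals cover counting error only. Within that limit, the chromosome 4 interval lay below the large-arm share in replicate 2's list and covered it in replicate 1's. With 2 libraries the reason for this difference was not tested.

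**Figure D4:**
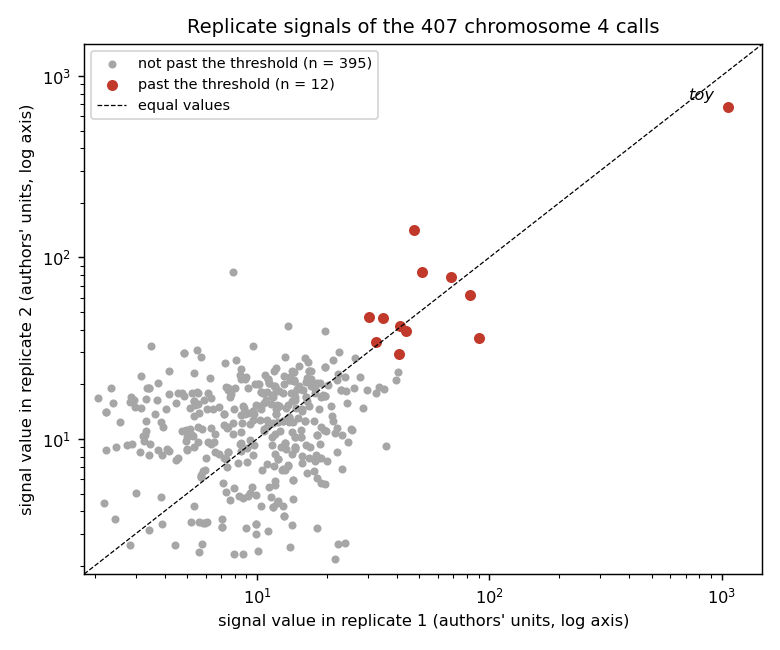
Signal value of each of the 407 chromosome 4 calls in replicate 1 (x) and replicate 2 (y), in the authors' units on log axes, with the 12 calls past the threshold in red and the line of equal values dashed. The calls past the threshold lie at 29.3 or above in both replicates, and the grey point highest on the y axis, at 82.7, is a second call near PlexA that shares the replicate 2 value of the PlexA promoter call.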

How the data were processed

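The authors' deposited peak lists, on dm6, were used; per the text deposited with them, each was made from alignments of 1 or both replicates with control alignments, and ranked by IDR. The deposited signal values have no stated scale, and the −log10 global IDR is as the authors deposited it; the labels name no aligner, caller or version, and read depth is unknown. The ranked file does not name its replicate columns; their intervals matched replicate 1's own list for 271 and replicate 2's for 279 of the 407 calls, and never the other's. Genes came from Ensembl release 115, sequence from RefSeq release 6. Named calls were every call past the threshold, the 3 calls just inside and the 3 just outside, and the 10 strongest not past. The members and lists were chosen with earlier results of these data known. No test between groups was possible; shares have exact binomial 95% intervals (scipy 1.17.1), covering counting error only. Word search, merging and distances were tested on simulated data.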

Additional observations from a re-analysis of the deposited data

How the results depend on the processing

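With overlapping calls merged, chromosome 4 had 265 loci in place of 407 calls. At an IDR of at most 0.001, 5 calls passed (1.23%), at starts of 3 genes. At 0.05, 18 calls passed (4.42%). The shares over all chromosomes were not computed at these other thresholds. With CAACAA in place of CAACAAC, 5 of the 12 calls held the word (41.7%), against 54.4% of large-arm calls past the threshold. Among chromosome 4 calls not past it, 11.6% held CAACAA. In the pooled list 5 of the 14 chromosome 4 calls past the threshold held CAACAAC, and the large-arm share in that list was not computed. Taking each replicate's own list in place of both gave 265 to 535 ranked calls, 8 to 13 past the threshold (1.495 to 4.91%), 4 to 8 of them at a transcript start, at 4 to 7 protein-coding genes, and 0 to 3 with CAACAAC. The lower end of the last came without replicate 1. The median signal past the threshold was 51.2 to 54.8 in those lists, whose values are those of single libraries, against 98.4. A summit past the threshold lay close to 0.311 to 1.24% of CAACAAC occurrences there, against 1.55%. Other alternatives stayed within 1.5 times or the interval. Leaving out the toy call was chosen after seeing the data. No paired analysis was possible because there is 1 group. Read depth is unknown, so what depth limits could not be assessed; 12 calls limit every share given for them.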
